A study of Homo sapiens with 60 samples.

Results

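H1975 drug-tolerant persister cells (DTP) were compared with H1975 cells given osimertinib acutely, to describe what a long exposure added to the transcript levels beyond the first day of EGFR inhibition. H1975 is a human lung adenocarcinoma line that carries an activating mutation of EGFR together with the gatekeeper mutation that blocks earlier EGFR inhibitors, and osimertinib is a covalent inhibitor of the mutant receptor. The 3 DTP libraries came from cells kept in 500 nM osimertinib for 21 days and harvested in drug. The 3 acute libraries came from parental cells that were first grown for 21 days without drug and then given 500 nM osimertinib for 24 hours. These 6 libraries are 6 of the 60 in the series, chosen by the line and treatment in their labels. The same line has 3 vehicle libraries (DMSO for 24 hours after 21 days of drug-free growth), 3 short washout libraries (DTP cells returned to drug-free medium for 24 hours) and 3 long washout libraries (72 hours). The series holds the same 5 arms for 3 other EGFR-mutant lines, PC9, HCC827 and HCC2935. Every library was bulk polyadenylated RNA from a monolayer culture, and the replicates were biological triplicates by the labels.

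Persistence is a reversible survival state in which a small part of a drug-sensitive population outlives a dose that kills the rest, without the fixed genetic change that marks resistant clones. EGFR signals through the RAS, RAF, MEK and ERK kinases, so its inhibition first lowers the ERK-driven transcripts and stops the cell cycle. Cells that persist are known to change identity programmes, above all along the axis between epithelial and mesenchymal states, and to change receptor use, metabolism and innate immune signalling. Cells alive after 21 days are also those that survived, and selection of cells and a change within cells cannot be told apart in bulk RNA. Nor can fewer cells expressing a gene be told apart from less RNA of it per cell.

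The acute libraries held 38712820 to 46228357 estimated counts (median 42019377) and the DTP libraries 41302136 to 49134031 (median 44060801). Levels are given below as CPM, counts scaled to a common library size by the TMM method, in the order replicate 1, 2 and 3, with acute before DTP where no arm is named. They compare the same gene between libraries and not different genes with each other. Acute replicate 1 stood nearer to the DTP libraries than the other acute libraries did: its root mean square log2 distance to the DTP mean was 0.489, against 0.642 and 0.739 for replicates 2 and 3. Its epithelial genes were lower than in the other acute libraries, and the same held for replicate 2 of the 3 DMSO libraries, so the main counts are also given without acute replicate 1. The label was checked against 8 epithelial markers, all detected, of which 7 were lower in DTP, and markers of other cell types were checked in whole lists. Of 8 fibroblast markers, 5 passed the filter on low counts, with COL3A1 and LUM higher and COL1A1 lower in DTP, and the 8 together summed to 259 to 552 CPM in acute and 114 to 334 CPM in DTP. COL3A1 had only 1 to 21 counts per library and LUM 10 to 141. The 8 endothelial markers summed to 8.58 to 13.1 CPM in acute and 10.1 to 15.8 CPM in DTP with none changed, ERG being at 0 in acute. The 8 leukocyte markers summed to 19.1 to 34.9 CPM in acute and 7.97 to 11.2 CPM in DTP, where CD79A and CSF1R were lower and MS4A1 was at 0. The part of these cell types in the results was not tested.

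An ERK target, DUSP6, was below its DMSO level in both drug arms. Its level was also low in the washout arms, so it does not mark the presence of drug. DUSP6, the phosphatase that ERK induces to restrain itself, was at 11.6, 7.65 and 10.3 CPM in DMSO, 0.971, 1.14 and 0.434 CPM in acute and 1.19, 1.95 and 0.813 CPM in DTP. Against DMSO its log2 fold change was -3.57 in acute and -2.90 in DTP, both past an adjusted p of 0.05 by edgeR's quasi-likelihood test. These 2 comparisons share their DMSO libraries with each other, and each shares its drug-treated libraries with the comparison of DTP and acute. The background is wide there: 44.9% of 14738 genes tested passed in acute against DMSO and 45.7% of 14699 in DTP against DMSO.

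Between DTP and acute, 3894 of 14888 genes tested differed at an adjusted p under 0.05 (edgeR, Benjamini-Hochberg), which is 26.2% of the genes. Of these, 1673 (11.2%) were higher and 2221 (14.9%) were lower in DTP. The falls were the deeper part: 1181 genes fell at least 2-fold against 355 that rose as much, and 42 fell at least 32-fold against 5 that rose as much. The median log2 fold change over all genes tested was 0.01. Without acute replicate 1 the count was 4610 (1995 higher, 2615 lower), without acute replicate 2 it was 1775 (541 higher, 1234 lower), and without acute replicate 3 it was 2224 (757 higher, 1467 lower). In 6843 genes (46.0%) no acute library overlapped with any DTP library. The calls on gene lists below are read against these shares.

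Most epithelial genes fell in DTP. Of 20 epithelial genes tested, 18 were lower in DTP than in acute cells and none was higher, with a median log2 fold change of -2.39 against 0.01 over all genes. CDH1, the E-cadherin of adherens junctions, was at 126, 332 and 404 CPM in acute and 5.26, 7.93 and 8.88 CPM in DTP (log2 fold change of -5.31, standard error 0.45, adjusted p = 0.00036). Acute replicate 1 held the lowest acute value, yet it was far above every DTP library, and without it the log2 fold change was -5.67. In DMSO, CDH1 was at 342, 124 and 307 CPM, which overlaps the acute values and lies above every DTP value (acute against DMSO, log2 fold change 0.11, not called). ESRP1, the splicing factor that maintains epithelial isoforms, was at 34.8, 112 and 144 CPM in acute and 0.682, 0.716 and 1.58 CPM in DTP (log2 fold change of -6.65, standard error 0.61, adjusted p = 0.000464).

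The transcription factors that hold cells in the epithelial state moved with these genes. OVOL2, a repressor of ZEB1, was at 1.28, 5.7 and 8.27 CPM in acute and 0, 0.0581 and 0.0239 CPM in DTP (log2 fold change of -7.37, standard error 0.95, adjusted p = 0.00156). OVOL1, its close relative, was at 2.91, 8.45 and 10.2 CPM and 0, 0.0968 and 0.0957 CPM (log2 fold change of -6.76, standard error 0.75, adjusted p = 0.000838). In whole counts OVOL2 had 0, 3 and 1 and OVOL1 had 0, 5 and 4 in the DTP libraries, so their fold changes rest on very few DTP reads. GRHL2, another activator of epithelial genes, was at 0.785, 3.2 and 3.79 CPM in acute and 0, 0.194 and 0.0957 CPM in DTP (log2 fold change of -4.69, standard error 0.88, adjusted p = 0.00672), and its DTP values are again only 0 to 10 counts. The tight-junction gene CLDN7 was at 59.8, 123 and 125 CPM and 4.56, 3.39 and 3.95 CPM (log2 fold change of -4.72, standard error 0.31, adjusted p = 0.000157). EPCAM, the epithelial adhesion molecule, fell less far, from 63, 126 and 153 CPM to 16.6, 23.4 and 20.6 CPM (log2 fold change of -2.52, standard error 0.30, adjusted p = 0.00118).

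The falls were smaller for the structural keratins. KRT7 was at 2472, 3473 and 2638 CPM in acute and 859, 704 and 809 CPM in DTP (log2 fold change of -1.88, standard error 0.17, adjusted p = 0.000416). KRT8 was at 1753, 2099 and 1781 CPM and 1152, 892 and 751 CPM (log2 fold change of -1.03, standard error 0.17, adjusted p = 0.0041), and KRT18, its partner in simple epithelia, did not pass the test at 783, 904 and 735 CPM and 761, 641 and 569 CPM. The summed level of the 20 genes was 3076 to 3764 CPM in DTP against 7020 to 9835 CPM in acute. Of the 18 genes called lower, 17 had groups that did not overlap in any library, ELF3 being the exception. Over all genes the same held for 3861 of the 3894 calls. The number called lower was 19 without acute replicate 1 and 16 without acute replicate 2. Against DMSO, 14 of the 20 were lower in DTP (23.4% of all genes) and none was higher, while in acute 5 were higher (21.2%) and none was lower.

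**Figure D1:**
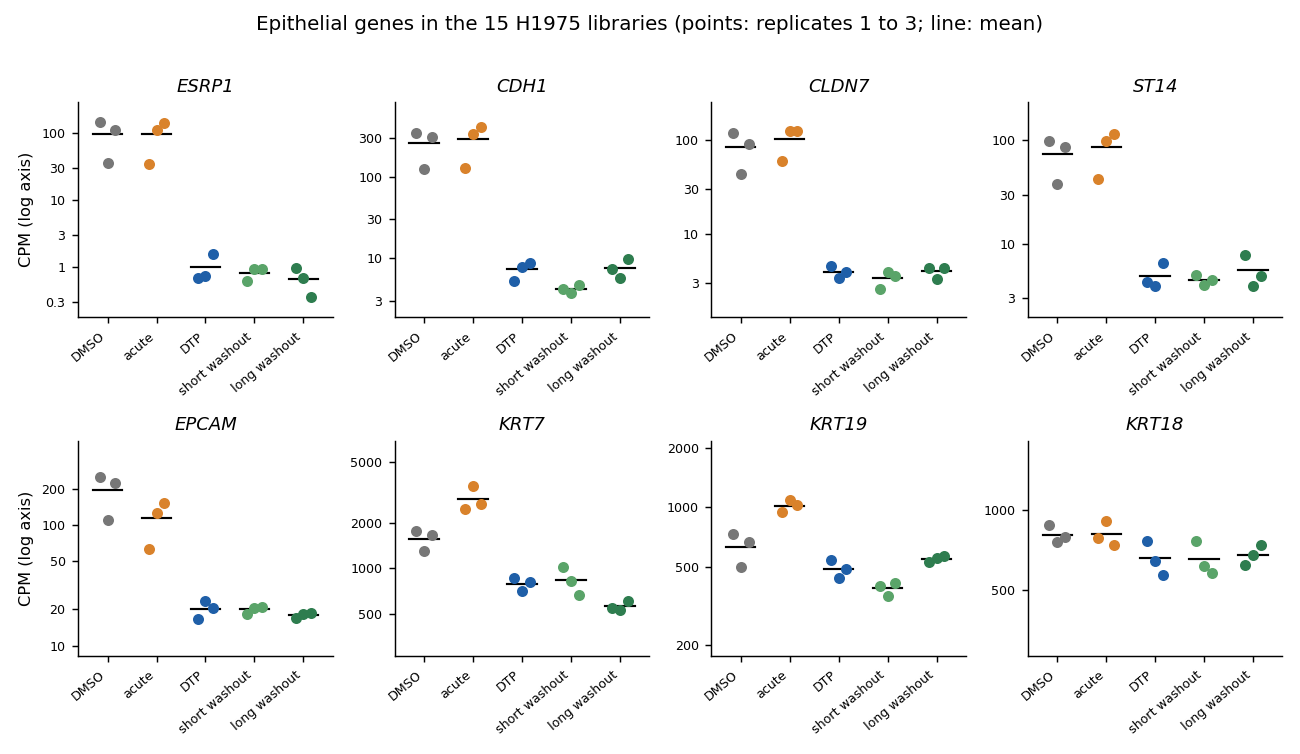
Levels of 8 epithelial genes (ESRP1, CDH1, CLDN7, ST14, EPCAM, KRT7, KRT19 and KRT18) in the 15 H1975 libraries, in TMM-scaled CPM on a log axis, with a point for each library and a line at the mean of each arm. For CDH1 the acute libraries run from 126 to 404 CPM and the DTP libraries from 5.26 to 8.88 CPM, with the washout libraries from 3.82 to 9.75 CPM, while the KRT18 libraries of the arms overlap.

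The E2-box, CAGGTG on either strand, is the motif that ZEB and SNAI repressors are known to bind, and the promoters are shown because this family of genes moved together. Promoter sequence (250 bases upstream of the start, RefSeq, GRCh38.p14) was at hand for 6 of the 18 epithelial genes called lower, and 3 of these 6 held the motif, against 20.6% of 27305 gene symbols. CLDN7 held 4 copies (chr17:7262479-7262728, minus strand), and RAB25 (chr1:156060910-156061159, plus strand) and ELF3 (chr1:202010337-202010586, plus strand) held 1 each. Each sequence is written 5′ to 3′ in the direction of transcription with the motif in capitals.
CLDN7: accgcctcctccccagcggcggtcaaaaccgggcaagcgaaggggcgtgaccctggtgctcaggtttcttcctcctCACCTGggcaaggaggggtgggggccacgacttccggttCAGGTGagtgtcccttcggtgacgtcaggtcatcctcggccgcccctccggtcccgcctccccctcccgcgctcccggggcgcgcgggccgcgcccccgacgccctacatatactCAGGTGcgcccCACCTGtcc
RAB25: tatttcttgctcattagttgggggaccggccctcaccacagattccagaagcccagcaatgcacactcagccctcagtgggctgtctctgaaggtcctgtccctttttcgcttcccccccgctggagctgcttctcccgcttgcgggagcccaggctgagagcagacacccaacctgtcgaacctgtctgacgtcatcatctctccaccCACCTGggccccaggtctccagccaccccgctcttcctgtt
ELF3: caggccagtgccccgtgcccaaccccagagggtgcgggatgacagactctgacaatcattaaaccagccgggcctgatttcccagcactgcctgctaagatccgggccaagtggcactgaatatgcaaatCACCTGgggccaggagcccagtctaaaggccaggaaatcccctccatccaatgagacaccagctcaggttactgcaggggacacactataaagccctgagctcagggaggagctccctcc
RAB25, a small GTPase of epithelial membrane recycling, was at 1.14, 3.09 and 3.55 CPM in acute and 0.044, 0.116 and 0.215 CPM in DTP (log2 fold change of -4.38, standard error 0.64, adjusted p = 0.0024). A match of letters is a description and says nothing of binding in these cells.

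Beyond the list, the genes that fell furthest came from several families. Among the 12 lowest fold changes at a mean of at least 2 CPM, SYK, a kinase known from immune cells and also made in epithelia, was at 8.37, 26.6 and 22.2 CPM in acute and 0.11, 0.116 and 0.167 CPM in DTP (log2 fold change of -7.19, standard error 0.54, adjusted p = 0.000204). TMPRSS4, a membrane serine protease, was at 2.6, 21 and 33.7 CPM and 0.396, 0.135 and 0.263 CPM (log2 fold change of -6.20, standard error 0.94, adjusted p = 0.00279). FXYD3, a regulator of the sodium pump, was at 3.29, 20.4 and 24.8 CPM and 0.11, 0.0194 and 0.0718 CPM (log2 fold change of -7.92, standard error 0.93, adjusted p = 0.00109), which in DTP is 5, 1 and 3 counts. The others were RBBP8NL, OVOL2, ANKRD33, ERP27, OVOL1, ESRP1, NECTIN4, GABRE and CD79A, with log2 fold changes from -7.97 to -6.34. In the same way TMPRSS11E had 13, 30 and 53 counts in acute and 0 in every DTP library, at least 11.4-fold lower against a floor of 3 counts per library.

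Surface antigens were lower in part. NECTIN4, an adhesion molecule and the target of an approved antibody-drug conjugate, was at 16.1, 46.1 and 61.2 CPM in acute and 0.484, 0.194 and 0.67 CPM in DTP (log2 fold change of -6.57, standard error 0.60, adjusted p = 0.000482). Of 16 surface antigens tested, 5 were lower and 2 were higher (1 higher without acute replicate 2 or 3 or DTP replicate 2 or 3). MUC1, a membrane mucin, was at 170.01, 243 and 278 CPM and 60.8, 32.5 and 58.7 CPM (log2 fold change of -2.21, standard error 0.26, adjusted p = 0.00112). MUC1 was low in DMSO at 45.7, 12.3 and 18.6 CPM, so the acute arm is the high one of the 3. CD274, which encodes PD-L1, was at 18.2, 14.9 and 9.5 CPM in acute and 19.3, 30.2 and 31.1 CPM in DTP (log2 fold change of 0.90, standard error 0.26, adjusted p = 0.0338), a call that was lost when acute replicate 2 or 3 or DTP replicate 2 or 3 was left out.

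The epithelial fall came without a rise of the mesenchymal list. Of 15 mesenchymal genes tested, 2 were higher and 4 were lower, with a median log2 fold change of -0.15. The count lower was 2 without acute replicate 2 or DTP replicate 2. VIM, the intermediate filament of mesenchymal cells, was at 2719.9, 1889 and 1328 CPM in acute and 2643, 2174 and 2693 CPM in DTP (log2 fold change of 0.32, standard error 0.23, adjusted p = 0.342), and the groups overlap. FN1, fibronectin, was at 1458, 1280.2 and 2038 CPM and 1889.9, 868 and 1556 CPM (log2 fold change of -0.17, standard error 0.28, adjusted p = 0.682), and CDH2, N-cadherin, stayed below 0.5 CPM in all 6 libraries. VIM passed the test without acute replicate 1, where its log2 fold change was 0.61.

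Among the repressors of epithelial genes, the 2 ZEB genes were higher and the 2 SNAI genes lower. ZEB1 was at 22.4, 13.9 and 12 CPM in acute and 29.997, 26.9 and 30.05 CPM in DTP (log2 fold change of 0.83, standard error 0.22, adjusted p = 0.0242). ZEB2 was at 6.55, 3.61 and 4.73 CPM and 9.33, 10.7 and 9.5 CPM (log2 fold change of 0.97, standard error 0.24, adjusted p = 0.0199). The ZEB rises were of the order of 2-fold, with groups that did not overlap, but ZEB1 lost its call when any library other than acute replicate 1 was left out, and ZEB2 without acute replicate 2 or 3 or DTP replicate 2. SNAI1 was at 36.3, 49.2 and 74.3 CPM and 27.1, 24.4 and 22.7 CPM (log2 fold change of -1.13, standard error 0.24, adjusted p = 0.0108), and SNAI2 at 50.3, 51.8 and 41.6 CPM and 34.9, 23.4 and 39 CPM (log2 fold change of -0.58, standard error 0.19, adjusted p = 0.0472). SNAI2 lost its call without any library but DTP replicate 3. In the DMSO arm ZEB1 was at 11.4, 26 and 14.6 CPM, where replicate 2, the library with the least CDH1, held the highest value.

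Of 21 collagen and matrix genes tested, 8 were lower and 4 higher. The basement-membrane laminin chains LAMA3 and LAMB3 had log2 fold changes of -1.67 and -1.18. COL7A1, the anchoring-fibril collagen, was at 315, 437 and 741 CPM in acute and 73.1, 61.5 and 45.8 CPM in DTP (log2 fold change of -3.07, standard error 0.32, adjusted p = 0.000671). Against them stood COL12A1, a fibril-associated collagen, at 645, 519 and 437 CPM in acute and 1946, 1486 and 1873 CPM in DTP (log2 fold change of 1.71, standard error 0.17, adjusted p = 0.000635). COL3A1, COL4A4 and THBS1 were the other genes higher, and COL1A1 and COL6A2 were among those lower. COL3A1 had only 5, 1 and 5 counts in acute and 13, 21 and 16 counts in DTP, so its rise rests on few reads. COL8A1, which is not on the list, was at 76, 66.7 and 43 CPM and 457, 361 and 529 CPM (log2 fold change of 2.84, standard error 0.23, adjusted p = 0.000251). The count called lower was 5 without acute replicate 3, and the count called higher was 2 without acute replicate 2, acute replicate 3 or DTP replicate 1.

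Integrin genes that changed were lower in DTP. Of 20 genes for integrins, SRC kinases and focal adhesion, 11 were lower and none was higher, with a median log2 fold change of -0.47. ITGB6, the epithelial subunit of the integrin that activates latent TGF-beta, was at 9.79, 28.9 and 60.9 CPM in acute and 1.34, 1.37 and 0.574 CPM in DTP (log2 fold change of -4.93, standard error 0.67, adjusted p = 0.00187). ITGA6 and ITGB4, which pair as the hemidesmosome receptor for laminin, had log2 fold changes of -1.02 and -0.97. The focal adhesion adaptors PXN and BCAR1 fell less, by 0.52 and 0.42 on the log2 scale. Without acute replicate 3 the count called lower was 7.

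Within the EGFR family, the partner receptor ERBB3 and 3 ligands fell, and 1 ligand and 2 inhibitors rose. Of 14 members tested, 5 were lower and 3 were higher. ERBB3, the kinase-impaired receptor that couples the family to PI3 kinase, was at 52.9, 151 and 199.6 CPM in acute and 5.63, 5.01 and 4.95 CPM in DTP (log2 fold change of -4.72, standard error 0.45, adjusted p = 0.000548). EGFR itself was at 344, 354 and 364 CPM and 262, 244 and 204 CPM (log2 fold change of -0.60, standard error 0.12, adjusted p = 0.00865), a far smaller fall, and ERBB2 was at 197, 248 and 284 CPM and 196, 176 and 194 CPM (log2 fold change of -0.39, standard error 0.15, adjusted p = 0.0817), not past the test. ERBB3 in DMSO was at 77.1, 23 and 70.3 CPM, below acute replicates 2 and 3.

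The ligands divided. TGFA, which had already fallen under acute drug, was at 34.7, 22.3 and 29.7 CPM in DMSO, 6.57, 8.79 and 4.17 CPM in acute and 1.98, 0.697 and 0.789 CPM in DTP (log2 fold change of -2.52, standard error 0.45, adjusted p = 0.0056 for DTP against acute). AREG and EREG followed, with log2 fold changes of -2.50 and -2.01 between DTP and acute. HBEGF, the heparin-binding ligand, rose from 29, 29 and 10.7 CPM in acute to 65.7, 62.4 and 44.8 CPM in DTP (log2 fold change of 1.31, standard error 0.33, adjusted p = 0.0218), above its DMSO values of 8.9, 18.5 and 11 CPM, and lost its call without DTP replicate 1 or 2. Of the inhibitors, LRIG1, which directs EGFR family receptors to degradation, was at 41.5, 34.4 and 25.1 CPM in acute and 133, 123 and 166 CPM in DTP (log2 fold change of 2.04, standard error 0.19, adjusted p = 0.000494). ERRFI1, whose protein MIG6 binds and blocks the EGFR kinase, was at 159.6, 147 and 118 CPM and 236, 245 and 256 CPM (log2 fold change of 0.78, standard error 0.13, adjusted p = 0.00373). Both sets of values were free of overlap between groups.

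Bypass receptor and ligand genes were called in both directions. Of 20 tested, 2 were higher (11.2% of all genes), the ligand gene PDGFC and the receptor gene ROR1. A further 6 were lower (14.9% of all genes). PDGFC lost its call without acute replicate 2 or 3 or DTP replicate 1, and ROR1 when any library other than acute replicate 1 was left out. AXL, a receptor known from tolerance to EGFR inhibitors, was at 127, 109 and 58.6 CPM in acute and 85, 98.4 and 87 CPM in DTP (log2 fold change of -0.14, standard error 0.24, adjusted p = 0.694), with the DTP values inside the acute range. MET was at 408, 497 and 432 CPM and 319.6, 367 and 299.7 CPM (log2 fold change of -0.46, standard error 0.13, adjusted p = 0.0298), and its call was lost without acute replicate 2 or 3 or DTP replicate 1 or 3. IRS1, the adaptor of insulin and IGF receptors, was at 43.9, 64 and 68.4 CPM and 19.9, 16.5 and 19.2 CPM (log2 fold change of -1.69, standard error 0.18, adjusted p = 0.000745). The count called lower was 2 without acute replicate 2 and 3 without acute replicate 3 or DTP replicate 3.

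Most ERK targets were below DMSO in both drug arms. Of 21 ERK targets and feedback genes, 7 were higher and 1 was lower in DTP than in acute, with a median log2 fold change of 0.24. Against DMSO, 17 of the 21 were lower in DTP (23.4% of all genes) and 15 in acute (23.7%), comparisons that share the DMSO libraries with each other. Several of the targets did not pass the test between the 2 drug arms: SPRY4 was at 1.38, 0.75 and 0.0241 CPM in acute and 0.374, 0.716 and 0.215 CPM in DTP (log2 fold change of -0.73, standard error 0.90, adjusted p = 0.579), and CCND1 at 54, 44.6 and 30.2 CPM and 28.7, 57.4 and 34.9 CPM (log2 fold change of -0.11, standard error 0.28, adjusted p = 0.803). DUSP5, a nuclear ERK phosphatase, was at 9.96, 11.3 and 10.2 CPM and 22.8, 23.6 and 15.7 CPM (log2 fold change of 0.96, standard error 0.18, adjusted p = 0.00694). The number higher was 4 without acute replicate 3 or any single DTP replicate.

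MYC, the growth regulator that is also an ERK target, rose furthest of these genes. MYC was at 406, 461 and 193 CPM in acute and 1072, 1277 and 1153 CPM in DTP (log2 fold change of 1.71, standard error 0.28, adjusted p = 0.00388). Its DTP level was above its DMSO level of 422, 637 and 546 CPM. All DTP values exceeded all acute and all DMSO values.

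**Figure D2:**
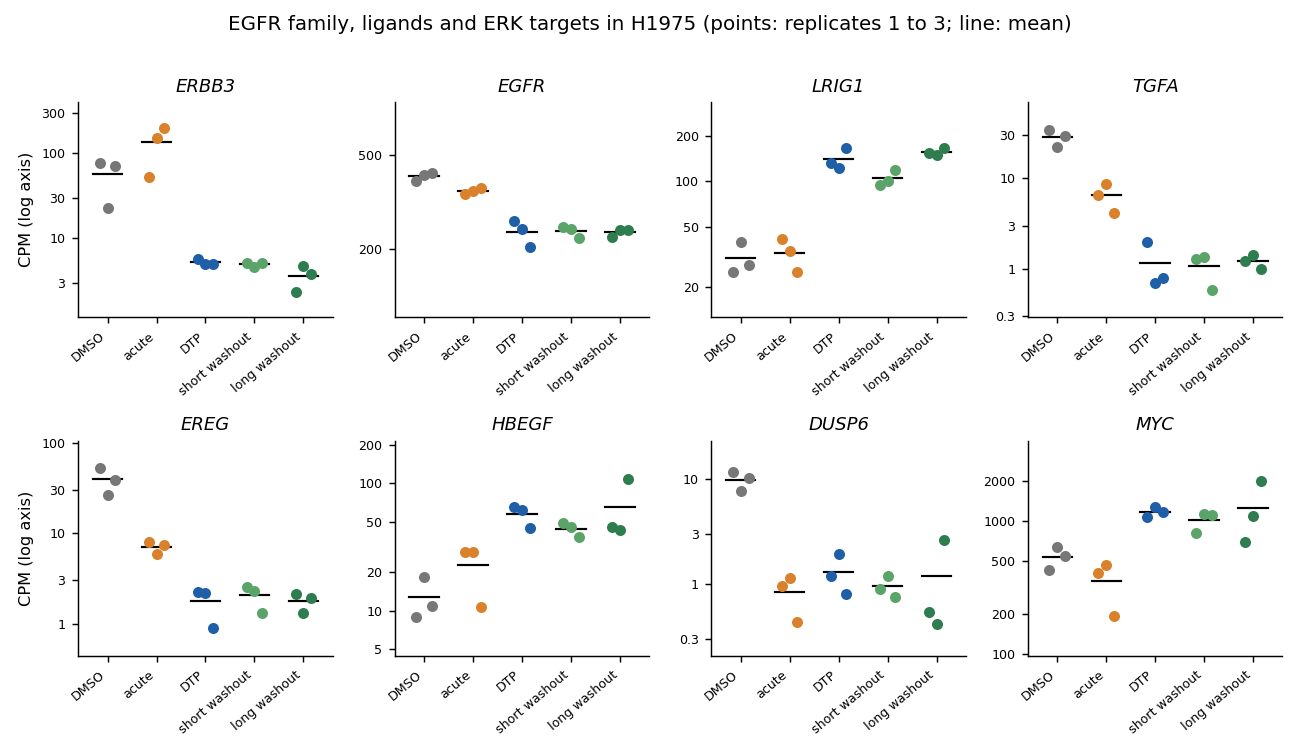
Levels of EGFR family and ERK pathway genes in H1975, in TMM-scaled CPM on a log axis, with a point for each library and a line at the mean of each arm (ERBB3, EGFR, LRIG1, TGFA, EREG, HBEGF, DUSP6 and MYC). DUSP6 is at 0.434 to 1.14 CPM in acute and 0.813 to 1.95 CPM in DTP, both below the 7.65 to 11.6 CPM of DMSO, while MYC reaches 1072 to 1277 CPM in DTP.

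The genes of ribosome production were higher in DTP than in acute but, unlike MYC, stayed below DMSO in their summed level. The list summed to 5341 to 6206 CPM in DMSO, 2538 to 3174 CPM in acute and 3756 to 4537 CPM in DTP. Of 23 ribosome biogenesis genes tested, 16 were higher in DTP and none was lower, with a median log2 fold change of 0.55. NOP56, a core protein of box C/D ribonucleoproteins, was at 239, 153 and 138 CPM in acute and 331, 431 and 359.8 CPM in DTP (log2 fold change of 1.06, standard error 0.21, adjusted p = 0.00777). POLR1A, the large subunit of RNA polymerase I, was at 127, 116 and 96.5 CPM and 187, 198 and 219 CPM (log2 fold change of 0.81, standard error 0.12, adjusted p = 0.00302). NOLC1, a nucleolar chaperone, was at 188, 177 and 142 CPM and 265, 349 and 325 CPM (log2 fold change of 0.87, standard error 0.15, adjusted p = 0.00448). The rises were small, from 0.39 to 1.06 on the log2 scale. The groups of all 16 did not overlap, which also held for 3861 of the 3894 genes called. The count was 18 without acute replicate 1, 5 without acute replicate 2, 8 without acute replicate 3 and 9 without DTP replicate 2.

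The cell cycle stayed low and variable. Against DMSO, all 24 replication and G1/S genes and all 20 mitosis genes were lower in acute (23.7% of all genes) and in DTP (23.4%). Between DTP and acute, 6 of the 24 replication genes were higher, with a median log2 fold change of 0.53, and 1 of the 20 mitosis genes (9 without DTP replicate 3). MKI67, the proliferation marker, was at 779, 656 and 693 CPM in DMSO, 117, 124 and 208 CPM in acute and 200.1, 339 and 117 CPM in DTP (log2 fold change of 0.52, standard error 0.36, adjusted p = 0.314). DTP replicate 2 was the highest and DTP replicate 3 the lowest of the DTP libraries, so the groups overlap. PCNA, the sliding clamp of DNA polymerase, was at 64.1, 56.2 and 53.4 CPM in acute and 87.3, 128 and 82.4 CPM in DTP (log2 fold change of 0.76, standard error 0.17, adjusted p = 0.0147), below 252 to 267 CPM in DMSO. The count of replication genes higher was 1 without acute replicate 2 and 3 without acute replicate 3 or DTP replicate 2. PCNA itself lost its call without acute replicate 2. Among 15 cell-cycle brakes tested, 3 were lower: CDKN1A, which encodes p21, was at 63.4, 104 and 119.7 CPM and 42, 24.5 and 30.3 CPM (log2 fold change of -1.59, standard error 0.26, adjusted p = 0.0039), and YPEL3 and CCNG2 were the others. CCNG2 lost its call without acute replicate 2 or 3 or DTP replicate 2 or 3. For these brakes the acute arm was the high one beside DMSO and DTP. In mean TPM, the other deposited measure of level, CDKN1A was at 23.9 in DMSO, 62.4 in acute and 20.9 in DTP. In the same order YPEL3 was at 9.9, 69.8 and 25.7 and CCNG2 at 13.3, 56.7 and 40.7.

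Interferon-stimulated genes were lower in DTP, with 22 of 25 called lower, 1 called higher and a median log2 fold change of -1.42. These genes encode antiviral effectors and sensors that interferon signalling switches on. OAS1, which makes the second messenger that activates RNase L, was at 12.8, 5.81 and 10.4 CPM in DMSO, 16.6, 36.7 and 29.1 CPM in acute and 3.39, 4.03 and 3.04 CPM in DTP (log2 fold change of -2.998, standard error 0.29, adjusted p = 0.000572 for DTP against acute). IFI44L was at 14.5, 40.7 and 44.6 CPM in acute and 5.59, 3.72 and 9.59 CPM in DTP (log2 fold change of -2.43, standard error 0.46, adjusted p = 0.00707). IRF9, a transcription factor of the interferon response, fell by 1.64 on the log2 scale. BST2, which tethers budding virus, was the member called higher at 194, 179 and 132 CPM and 251, 227 and 282 CPM (log2 fold change of 0.57, standard error 0.15, adjusted p = 0.0264), a call lost without acute replicate 2 or 3 or DTP replicate 1 or 3.

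The acute arm held the high side of this difference for part of the list. Against DMSO, 13 of the 25 were higher in acute (21.2% of all genes) and 1 lower, while in DTP 3 were higher and 11 lower (22.4% and 23.4% of all genes). Those comparisons share the DMSO libraries. The low-epithelial libraries, acute replicate 1 and DMSO replicate 2, also held the lowest values of their arms for OAS1 and IFI44L. The number called lower was 23 without acute replicate 1 and 16 without acute replicate 2.

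The interferon-stimulated response element, searched as GAAA, any 2 bases and GAAA on either strand, is a letter pattern known from promoters of interferon-responsive genes. Of the 22 genes called lower, 14 had a promoter entry (250 bases upstream, RefSeq, GRCh38.p14) and 9 of these 14 held the element, against 3.71% of 27305 symbols. The list was defined by response to interferon, so a high share belongs to its definition. IFI44L (chr1:78620198-78620447, plus strand) and IFI27 (chr14:94110486-94110735, plus strand) held 2 matches and IFI44 (chr1:78649539-78649788, plus strand) 1, shown with the element in capitals, 5′ to 3′.
IFI44L: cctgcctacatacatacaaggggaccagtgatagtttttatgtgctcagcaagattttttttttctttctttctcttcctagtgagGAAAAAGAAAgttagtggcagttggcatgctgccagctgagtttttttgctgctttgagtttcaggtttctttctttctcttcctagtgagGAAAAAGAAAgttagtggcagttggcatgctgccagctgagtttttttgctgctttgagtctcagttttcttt
IFI27: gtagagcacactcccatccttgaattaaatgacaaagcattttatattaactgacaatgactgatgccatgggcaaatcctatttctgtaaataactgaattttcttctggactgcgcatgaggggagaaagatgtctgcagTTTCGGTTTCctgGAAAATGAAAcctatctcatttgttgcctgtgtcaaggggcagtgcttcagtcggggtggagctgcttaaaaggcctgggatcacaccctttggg
IFI44: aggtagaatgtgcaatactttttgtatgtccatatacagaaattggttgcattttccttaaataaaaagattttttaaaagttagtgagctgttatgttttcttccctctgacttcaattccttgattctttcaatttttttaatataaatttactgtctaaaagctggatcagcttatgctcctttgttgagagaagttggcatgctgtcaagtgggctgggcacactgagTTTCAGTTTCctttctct
IFI27 was at 92, 153 and 155 CPM in acute and 40.8, 14.8 and 26 CPM in DTP (log2 fold change of -2.32, standard error 0.35, adjusted p = 0.0027). IFI44 was at 27.7, 45.2 and 54.1 CPM and 10.3, 13.9 and 10.9 CPM (log2 fold change of -1.88, standard error 0.25, adjusted p = 0.00169).

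Antigen presentation changed in part. CIITA, the master regulator of MHC class II, was at 12.9, 31.3 and 50.6 CPM in acute and 10.6, 9.44 and 7.51 CPM in DTP (log2 fold change of -1.81, standard error 0.42, adjusted p = 0.0154), with its target CD74, the invariant chain, at 159, 185 and 254 CPM and 123, 92.4 and 137 CPM (log2 fold change of -0.79, standard error 0.20, adjusted p = 0.0224). CIITA lost its call without DTP replicate 2 or 3, and CD74 without acute replicate 2 or 3 or DTP replicate 1 or 2. Of 10 genes of the class I pathway tested, PSMB10 and PSMB9, subunits of the immunoproteasome, were lower and TAP2, a peptide transporter, was higher. TAP2 lost its call without acute replicate 2, and PSMB9 without acute replicate 2 or 3 or any single DTP replicate. The HLA genes themselves were not analysed here.

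Inflammatory and complement transcripts moved the other way. Of 19 chemokine, cytokine and NF-kB genes tested, 7 were higher and 1, NFKBIA, was lower, with a median log2 fold change of 0.76. ICAM1, the leukocyte adhesion ligand, was at 118, 98.5 and 65.2 CPM in acute and 264, 240.2 and 274 CPM in DTP (log2 fold change of 1.44, standard error 0.19, adjusted p = 0.00172). CCL2, the monocyte chemoattractant, was at 3.29, 2.75 and 4.53 CPM and 17.3, 11.7 and 13.9 CPM (log2 fold change of 1.998, standard error 0.25, adjusted p = 0.00128). C3, the central complement component, was at 717, 591 and 534 CPM and 1869.6, 1090.3 and 1983 CPM (log2 fold change of 1.40, standard error 0.22, adjusted p = 0.00361). SERPING1, which inhibits C1, was at 1.84, 0.977 and 1.52 CPM and 8.08, 3.93 and 12.9 CPM (log2 fold change of 2.49, standard error 0.44, adjusted p = 0.00536), while CD55, a membrane shield against complement, fell from 77, 101 and 88.1 CPM to 49.9, 50.4 and 46.1 CPM (log2 fold change of -0.89, standard error 0.12, adjusted p = 0.00202). Of 13 complement genes 6 were higher and 2 lower, among them C4A and C4B, near-identical copies whose counts cannot be separated with confidence. The count of chemokine genes higher was 4 without acute replicate 2, acute replicate 3 or DTP replicate 3, and that of complement genes higher was 2 without acute replicate 2, DTP replicate 1 or DTP replicate 3.

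Among the 12 genes that rose furthest were secreted and signalling proteins. EDN2, the peptide endothelin 2, was at 0.95, 0.909 and 0.941 CPM in acute and 23.2, 33.4 and 61.1 CPM in DTP (log2 fold change of 5.37, standard error 0.38, adjusted p = 0.000199). INHBA, whose product forms activin A, was at 1.36, 1.68 and 1.28 CPM and 17.1, 21.8 and 19 CPM (log2 fold change of 3.72, standard error 0.20, adjusted p = 0.000118). AMOT, the angiomotin scaffold that holds YAP outside the nucleus, was at 0.744, 0.977 and 0.555 CPM and 17.5, 7.08 and 22.5 CPM (log2 fold change of 4.34, standard error 0.45, adjusted p = 0.000671). All 3 were near their acute level or below it in DMSO, with EDN2 at 0.687 to 1.48 CPM, INHBA at 0.661 to 1.37 CPM and AMOT at 0.0221 to 0.112 CPM. The other 9 of the 12 highest were PXYLP1, HAPLN1, PARD3B, ATP13A4, ZNF503, RGS16, F2RL2, NR3C2 and COL8A1, with log2 fold changes from 4.52 down to 2.84. ATP13A4 lost its call without DTP replicate 3.

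TGF-beta family genes moved in both directions. Of 20 tested, 5 were higher and 7 lower. The ligands INHBA, TGFB2, BMP2 and BMP7 and the receptor gene TGFBR1, at 95.2, 85.6 and 64.4 CPM in acute and 221, 301 and 252 CPM in DTP (log2 fold change of 1.64, standard error 0.17, adjusted p = 0.00067), were the 5 that rose. BMP7 was near the floor, with 10, 7 and 5 counts in acute and 43, 45 and 62 counts in DTP. The genes that fell included the immediate targets ID1, ID2 and ID3 and the feedback inhibitors SMAD6, SMAD7 and SKIL. ID2, an inhibitor of helix-loop-helix factors, was at 29.7, 25.4 and 18.3 CPM and 5.72, 4.61 and 3.06 CPM (log2 fold change of -2.47, standard error 0.26, adjusted p = 0.00073). The number higher was 3 without acute replicate 2, DTP replicate 1 or DTP replicate 2. CCN2, a target of both YAP and TGF-beta, was at 74.4, 74.1 and 32 CPM and 251, 253 and 162 CPM (log2 fold change of 1.87, standard error 0.31, adjusted p = 0.00411). Of 21 YAP and TEAD targets 5 were higher and 2 lower, the higher count being 3 without acute replicate 2, DTP replicate 1 or DTP replicate 2.

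Cholesterol genes were lower in DTP. Of 22 genes of synthesis and uptake tested, 14 were lower and none was higher, with a median log2 fold change of -0.58. INSIG1, which retains the SREBP activator in the endoplasmic reticulum, was at 50.6, 83.8 and 87.8 CPM in acute and 23.2, 30.7 and 22.8 CPM in DTP (log2 fold change of -1.56, standard error 0.22, adjusted p = 0.00225). HMGCS1, an early enzyme of the mevalonate pathway, was at 132, 162 and 136 CPM and 71.2, 92.4 and 69 CPM (log2 fold change of -0.90, standard error 0.14, adjusted p = 0.00348). The groups of these 2 genes did not overlap, but the count called lower was 4 without acute replicate 2, 7 without DTP replicate 1 and 9 without acute replicate 3. The sterol element, searched as TCAC, any base and CCAC on either strand, was in 0 of the 11 promoters at hand for the 14 genes, against 1.09% of all symbols.

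Other metabolic genes changed singly. HMOX1, the haem oxygenase induced by NRF2 and by haem, was at 247, 297 and 269 CPM in acute and 45, 36.5 and 25.4 CPM in DTP (log2 fold change of -2.95, standard error 0.20, adjusted p = 0.00017). CPT1A, which commits long-chain fatty acids to oxidation, was at 65, 45.2 and 33.6 CPM and 11.4, 7.84 and 5.31 CPM (log2 fold change of -2.57, standard error 0.31, adjusted p = 0.00114). NQO1, another NRF2 target, fell by 1.09 on the log2 scale. Of 18 NRF2 targets 6 were lower and 1 higher, and of 14 fatty acid oxidation genes 5 were lower and 1 higher. The fatty acid count called lower was 2 without acute replicate 2 and 3 without DTP replicate 3. Of 35 respiratory chain subunits 3 were lower and none was higher. That count was 0 without acute replicate 2 and 1 without acute replicate 3 or DTP replicate 1 or 3.

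Lineage and developmental lists moved in both directions. Of 13 Notch pathway genes tested 5 were lower and 1 was higher, with NOTCH3 at 27.2, 55.2 and 93.8 CPM in acute and 19.4, 10.9 and 16.3 CPM in DTP (log2 fold change of -1.95, standard error 0.41, adjusted p = 0.0105). The number of Notch genes lower was 2 without acute replicate 2, acute replicate 3, DTP replicate 2 or DTP replicate 3. FOXA2, a factor of lung epithelium, was at 1.34, 2.11 and 3.93 CPM and 0.066, 0.0774 and 0.12 CPM (log2 fold change of -4.81, standard error 0.56, adjusted p = 0.00107). ABCG2, a drug efflux pump, was at 74.8, 69.998 and 41.8 CPM and 13.1, 14.2 and 13.2 CPM (log2 fold change of -2.22, standard error 0.21, adjusted p = 0.000494), and 3 of 9 efflux genes tested were lower and 2 higher. The 2 higher were 0 without acute replicate 3 or DTP replicate 2 or 3, and 1 without acute replicate 2 or DTP replicate 1. FBXO32, a ubiquitin ligase and FOXO target, was at 311, 375 and 449 CPM and 109.6, 54.9 and 70.7 CPM (log2 fold change of -2.30, standard error 0.25, adjusted p = 0.000797). Of 14 BCL2 family genes 1 was higher and 1 lower, of 19 WNT genes 4 were higher and 3 lower, and of 25 histone and DNA modifying enzymes 4 went each way. Without acute replicate 2 the WNT counts were 1 higher and 1 lower, as they were without DTP replicate 1. The WNT count higher was 2 without acute replicate 3 or DTP replicate 2 or 3, and the count lower was 1 without DTP replicate 3. For the modifying enzymes the counts were 0 higher and 1 lower without acute replicate 2, the count higher was 2 without acute replicate 3 or DTP replicate 3, and the count lower was 2 without DTP replicate 1.

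In the lysosomal, iron and aldehyde lists, 1 gene of each fell by more than 3 on the log2 scale. CTSS, the cathepsin of antigen processing, was at 19.4, 45.7 and 43.4 CPM in acute and 1.17, 0.871 and 2.61 CPM in DTP (log2 fold change of -4.58, standard error 0.47, adjusted p = 0.00067), in a list of 22 lysosome and autophagy genes of which 4 were higher and 7 lower. SLC40A1, the iron exporter ferroportin, was at 3.31, 6.13 and 6.73 CPM and 0.506, 0.213 and 1.03 CPM (log2 fold change of -3.25, standard error 0.54, adjusted p = 0.00399), among 13 ferroptosis genes with 1 higher and 3 lower. ALDH3B2, an aldehyde dehydrogenase, was at 10.6, 29.3 and 49.5 CPM and 0.792, 0.639 and 0.407 CPM (log2 fold change of -5.62, standard error 0.59, adjusted p = 0.000696), where 2 of 16 aldehyde dehydrogenases were higher and 3 lower. The lysosome count higher was 1 without acute replicate 2 or 3 or DTP replicate 1 or 3. The aldehyde dehydrogenase count higher was 0 without acute replicate 2 or DTP replicate 2 or 3 and 1 without acute replicate 3. In each of these 3 genes the DTP libraries lay below every acute library.

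Of the marker genes of other lineages, 8 squamous, 5 neuroendocrine and 11 lung lineage genes passed the filter on low counts. IVL, the involucrin of the squamous envelope, was at 0.971, 2.93 and 3.88 CPM in acute and 0.11, 0.0968 and 0.0957 CPM in DTP (log2 fold change of -4.67, standard error 0.61, adjusted p = 0.00162), 1 of 2 lower among 8 squamous genes tested, with 1 higher. The number of squamous genes lower was 4 without acute replicate 1, and 1 without acute replicate 2 or 3 or DTP replicate 2 or 3. POU2F3, the tuft-cell factor, was at 4.63, 14 and 12.6 CPM and 0.99, 1.03 and 0.359 CPM (log2 fold change of -3.72, standard error 0.51, adjusted p = 0.00201), 1 of 2 lower among 5 neuroendocrine genes tested, with none higher. The number was 1 without acute replicate 2 or 3 or DTP replicate 1 or 2. SLC34A2, the phosphate carrier of alveolar type II cells, was at 0.207, 0.295 and 0.193 CPM and 2.97, 1.04 and 1.41 CPM (log2 fold change of 2.93, standard error 0.50, adjusted p = 0.00461), among 11 lung lineage genes tested, with 2 higher and 3 lower. The lung lineage count lower was 1 without acute replicate 2 or 3 or DTP replicate 1, and the count higher was 1 without acute replicate 3 or DTP replicate 2 or 3.

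The glycolysis, ATF4 and FOXO lists held calls in both directions. EGLN3, the oxygen-sensing prolyl hydroxylase, was at 50.6, 43.8 and 46.2 CPM and 119.96, 114 and 118 CPM (log2 fold change of 1.30, standard error 0.10, adjusted p = 0.000204), in a glycolysis and hypoxia list with 4 of 19 higher and 2 lower. The count higher was 1 without acute replicate 2 and 2 without acute replicate 3 or DTP replicate 1 or 3, and the count lower was 1 without acute replicate 2. PSAT1, an enzyme of serine synthesis and a target of ATF4, was at 108, 93.3 and 48.2 CPM and 174, 219 and 241 CPM (log2 fold change of 1.33, standard error 0.26, adjusted p = 0.00858), in a list of 21 with 3 higher and 2 lower (1 lower without acute replicate 2). Of 19 FOXO targets 3 were higher and 5 lower, with 5 higher without acute replicate 1 and 3 lower without acute replicate 2 or 3 or DTP replicate 2. Of 11 fatty acid synthesis genes 2 were higher and none was lower, and the count higher was 1 without DTP replicate 1 and 0 without any other single library.

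**Figure D3:**
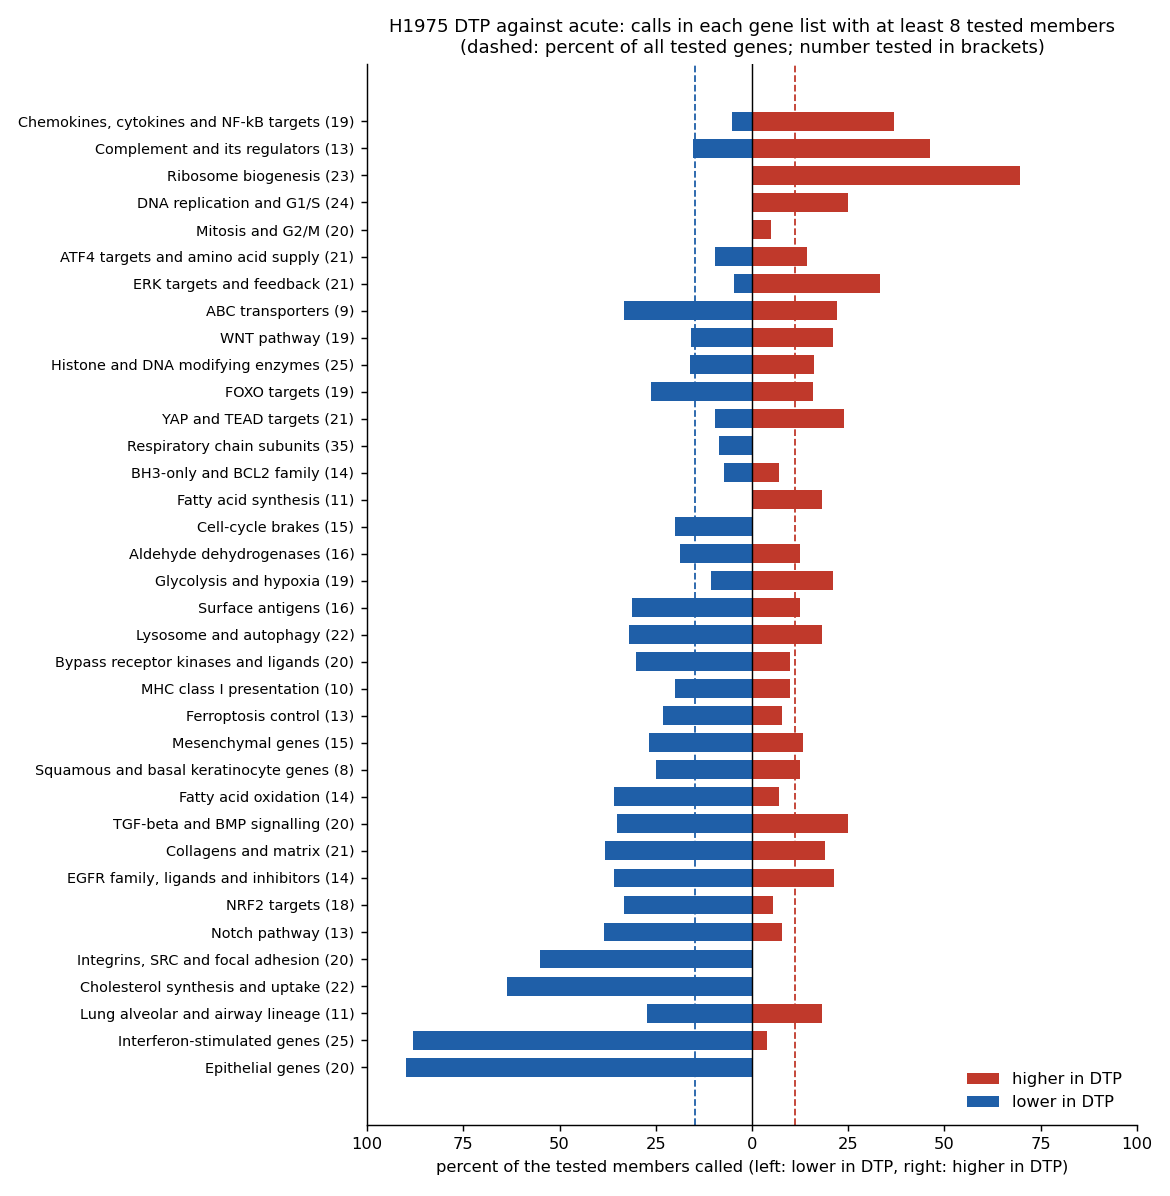
For each gene list with at least 8 tested members, the percent of those members called higher (bars to the right) and lower (bars to the left) in H1975 DTP against acute at an edgeR adjusted p under 0.05, ordered by median fold change. Dashed lines mark the 11.2% higher and 14.9% lower of all genes tested, and the bars that reach furthest past them are those of the epithelial list (18 of 20 lower), the interferon list (22 of 25 lower) and the ribosome biogenesis list (16 of 23 higher).

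The washout arms show cells after drug was removed, and no test was run on them. CDH1 was at 4.23, 3.82 and 4.69 CPM after the short washout and 7.35, 5.77 and 9.75 CPM after the long washout, each below the lowest DMSO value of 124 CPM. EDN2 was at 14.8, 16.9 and 29 CPM and 46.9, 42.4 and 48.6 CPM, and OAS1 at 2.58, 2.49 and 2.94 CPM and 3.45, 2.89 and 3.55 CPM. ERBB3 was at 5.18, 4.55 and 5.19 CPM and 2.35, 4.77 and 3.8 CPM. For these 4 genes no washout library came back to the DMSO range. MYC after the long washout was at 686, 1082 and 1995 CPM and DUSP6 at 0.548, 0.417 and 2.64 CPM, long washout replicate 3 being the highest of both sets. Every long washout value of DUSP6 was below every DMSO value. In mean TPM DUSP6 was at 7.44 in DMSO, 0.731 after the short washout and 0.866 after the long washout.

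The same contrast was compared with that of the other 3 lines. The effect of DTP against acute differed between H1975 and the mean of the other 3 lines in 4437 of 16168 genes tested (27.4%), with 1969 (12.2%) higher and 2468 (15.3%) lower in H1975. This was tested as a difference of effects over 24 libraries by edgeR. CDH1 had a difference of -4.59 (standard error 0.41, adjusted p = 1.09e-07) on the log2 scale, where PC9 was at -0.11, HCC827 at -2.15 and HCC2935 at 0.17. Of the 20 epithelial genes 15 had a more negative effect in H1975 and none a more positive one. The list was lower in HCC827 too, with 18 called lower there (13.8% of all genes), 15 in PC9 (20.6%) and 8 in HCC2935 (20.4%), but the median log2 fold changes were -1.54, -0.42 and -0.11 against -2.39 in H1975.

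The mesenchymal list also had a lower effect in H1975 than the mean of the other lines. Against PC9 alone, 6 of 17 members had a lower effect in H1975 (13.3% of all genes). Against HCC827 alone it was 11 (13.9%) and against HCC2935 alone 11 (16.2%). Over all genes, 39.8% were called in either direction in PC9, 29.5% in HCC827 and 42.4% in HCC2935. In PC9 7 members of the mesenchymal list were higher (19.2% of all genes), in HCC827 9 (15.7%) and in HCC2935 11 (22.0%), and 11 of 17 tested had a lower effect in H1975 with none having a higher one. VIM differed by -1.43 (standard error 0.35, adjusted p = 0.00405) between H1975 and the mean of the others, whose log2 fold changes were 1.11 in PC9, 2.31 in HCC827 and 1.88 in HCC2935. For VIM the difference from PC9 alone was -0.77 (standard error 0.44, edgeR adjusted p = 0.217), which was not called. It was -1.98 from HCC827 alone and -1.55 from HCC2935 alone, both past the threshold. AXL differed by -1.77 (standard error 0.35, adjusted p = 0.000623), with log2 fold changes of -0.34 in PC9, 4.15 in HCC827 and 1.11 in HCC2935. Against PC9 alone AXL differed by 0.22 (standard error 0.42, edgeR adjusted p = 0.759), while it differed by -4.28 against HCC827 alone and by -1.25 against HCC2935 alone, both past the threshold. EGFR differed by -1.03 (standard error 0.13, adjusted p = 4.03e-06): it was higher in PC9 and HCC2935 DTP cells and lower in H1975 and HCC827. Against HCC827 alone EGFR differed by -0.09 (edgeR adjusted p = 0.729), which was not called.

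Interferon-stimulated genes were called higher in PC9 and lower in H1975. In PC9 22 of the 25 were higher in DTP than in acute with a median log2 fold change of 1.40, in HCC827 3 were higher and 1 lower, and in HCC2935 none was higher and 11 were lower. The difference between H1975 and the mean of the others passed the test for 23 of the 25, all lower in H1975. Against PC9 alone the difference passed the test for all 25, each lower in H1975, beside 13.3% of all genes. Against HCC827 alone it passed for 18 (13.9% of all genes) and against HCC2935 alone for 11 (16.2%), each lower in H1975. CMPK2, an interferon-induced mitochondrial kinase, was at 4.63, 15.5 and 11.8 CPM in H1975 acute and 0.374, 0.194 and 0.191 CPM in H1975 DTP and differed from the other lines by -7.16 (standard error 0.63, adjusted p = 9.34e-08). Its log2 fold change was 4.42 in PC9, 0.93 in HCC827 and -0.01 in HCC2935.

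Ribosome biogenesis and p21 also set H1975 apart. Of the 23 ribosome biogenesis genes 15 had a higher effect in H1975 (12.2% of all genes) and none a lower one. Against PC9 alone 11 had a higher effect in H1975, against HCC827 alone 11 and against HCC2935 alone 8, with none lower. The share of all genes higher in H1975 ran from 10.2% to 13.2% over these single-line comparisons. The median differences of the list were small, at 0.47, 0.44 and 0.35 on the log2 scale in the same order. CDKN1A differed by -2.62 (standard error 0.32, adjusted p = 4.42e-06), being higher in DTP than in acute in PC9 (log2 fold change 1.76) and HCC2935 (0.79). The rise of AMOT differed by 4.83 (standard error 0.45, adjusted p = 2.26e-07), with -0.40, -0.21 and -0.85 in PC9, HCC827 and HCC2935. INHBA, by contrast, rose in every line, with log2 fold changes of 1.97, 3.82 and 4.70 in PC9, HCC827 and HCC2935, and the difference of 0.24 was not called. Against PC9 alone INHBA differed by 1.77 (standard error 0.46, edgeR adjusted p = 0.00665), which was called. It differed by -0.09 from HCC827 alone and by -0.98 from HCC2935 alone, neither past the threshold.

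**Figure D4:**
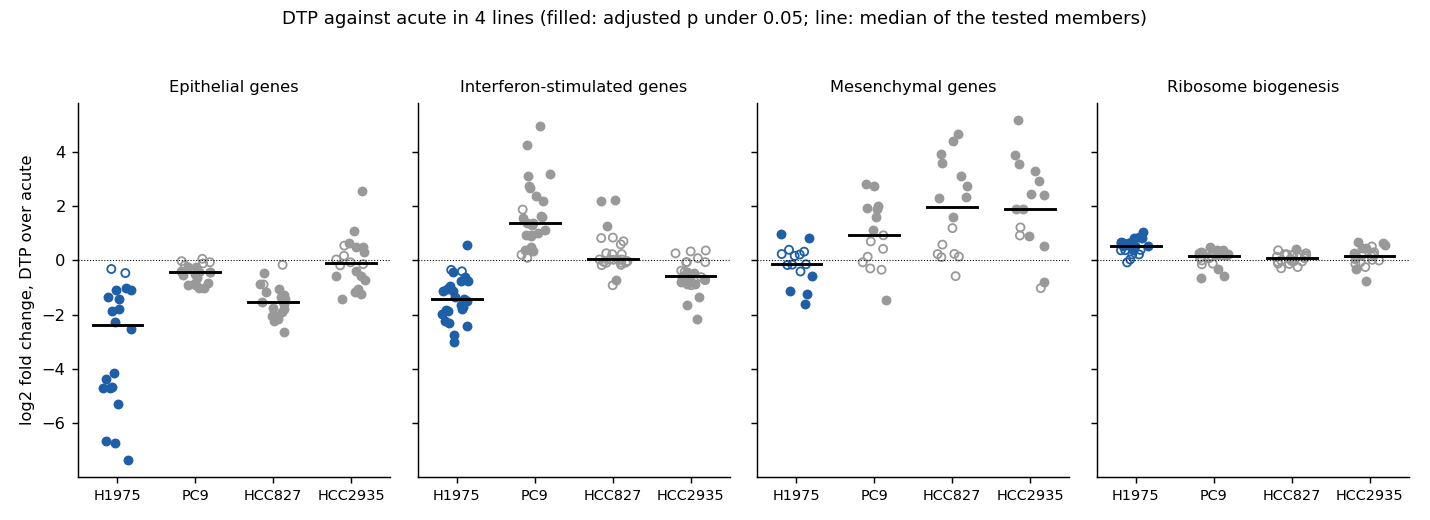
Log2 fold changes of DTP against acute for the tested members of the epithelial, interferon-stimulated, mesenchymal and ribosome biogenesis lists in each of the 4 lines, with a point for each gene (filled at an edgeR adjusted p under 0.05, horizontal spread only to separate points) and a line at the median. The epithelial medians are -2.39 in H1975, -0.42 in PC9, -1.54 in HCC827 and -0.11 in HCC2935, and the interferon medians are -1.42, 1.40, 0.03 and -0.59 in the same order.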

How the data were processed

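Polyadenylated RNA of the 6 H1975 DTP and acute libraries was sequenced as paired reads, within a series of 60 libraries. The authors deposited estimated counts for 19712 genes and a table of log2 TPM values with a pseudocount of 0.01. The submitters' processing notes name HISAT2 2.1.0, Salmon 0.8.2 and hg38 without their order. The annotation and any use of strand are not given in the sources used here, and fractional assignment can shift counts between near-identical or overlapping genes. No statistical test for these arms was stated.

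Estimated counts were rounded, filtered (filterByExpr), scaled by TMM and tested by edgeR 4.0.16 (quasi-likelihood, R 4.3.3) with Benjamini-Hochberg adjustment and a threshold of 0.05. The 6 libraries of each line were fitted on their own, and 24 libraries were fitted together for the difference between lines. Standard errors were derived from the fold change and the F statistic. Total counts per library bound the precision, and p-values measure the spread between these replicates only. The edgeR fits were tested on simulated data. DESeq2 1.42.0 and limma 3.58.1 (on the log2 TPM values), other scalings, filters and sample sets were alternatives.

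Named genes were the 12 highest and 12 lowest fold changes at a mean of at least 2 CPM with groups that do not overlap, up to 3 each way per list at a mean of at least 1 CPM, the 8 highest and 8 lowest differences between lines, and 9 fixed checks. Other list members were named after their values were seen. The comparison and the lists were chosen with earlier results of these data known. Of 189 named genes, 186 matched GENCODE 29, where 82 overlap a gene on the opposite strand and 54 a gene on the same strand. Some members of the gene lists are counted but not reported by name here.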

Additional observations from a re-analysis of the deposited data

Results flagged for a closer look

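The effect of DTP against acute in H1975 differed from the mean effect of PC9, HCC827 and HCC2935 in 4437 genes, tested as a difference of effects by edgeR. The values that follow are that difference on the log2 scale, H1975 minus the mean of the other lines, for the genes named by the rule that pass the test. Among the epithelial, mesenchymal and receptor genes it was -4.59 for CDH1, -1.43 for VIM, -1.77 for AXL, -1.03 for EGFR and -1.07 for MET. For the cell-cycle inhibitor gene CDKN1A it was -2.62. Against HCC827 alone EGFR differed by -0.09 (edgeR adjusted p = 0.729) and MET by -0.63 (edgeR adjusted p = 0.0698), neither called. VIM and AXL were not called against PC9 alone.

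The most negative differences were -7.76 for TMPRSS11E, -7.50 for FAM49A, -7.44 for NKAIN4, -7.34 for MYL7, -7.16 for CMPK2, -6.97 for COL20A1, -6.95 for FAT2 and -6.81 for GABRE. TMPRSS11E had no count in any H1975 DTP library and FAM49A had 2 in all, so the size of their difference depends on the prior count of the fit. In H1975 alone, the call of MYL7 between DTP and acute was lost when acute replicate 2 or 3 or DTP replicate 2 or 3 was left out, and that of MET when acute replicate 2 or 3 or DTP replicate 1 or 3 was left out.

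The most positive differences were 4.83 for AMOT, 4.82 for the read-through locus BLOC1S5.TXNDC5, 4.75 for LRATD1, 4.08 for PXYLP1, 3.94 for EDN2, 3.46 for MGAM, 3.30 for FLRT3 and 3.22 for HS6ST2. The read-through locus was not called against any line alone (edgeR adjusted p = 0.0583 for PC9, 0.147 for HCC827 and 0.0633 for HCC2935). FLRT3 was not called against PC9 alone (edgeR adjusted p = 0.0755). LRATD1 had 2 counts in all 3 H1975 acute libraries together, and FLRT3 had 5. The call between DTP and acute in H1975 was lost for LRATD1 and MGAM without acute replicate 2, and for the read-through locus without acute replicate 2 or DTP replicate 1 or 3. The read-through locus shares its sequence with its component genes, so its counts are uncertain.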

How the results depend on the processing

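At a threshold of 0.01 on the adjusted p, the count of genes between H1975 DTP and acute was 1378 (400 higher, 978 lower), the difference from the other lines 2710, DTP against DMSO 4248, acute against DMSO 4072, PC9 3467, HCC827 1771 and HCC2935 3933. With a fold of at least 2 required, the H1975 count was 1536 (355 higher, 1181 lower). Leaving out single replicates gave 1775 to 4610 genes, 541 to 1995 higher and 1234 to 2615 lower, and 2328 to 5237 in HCC827. Fits of all 15 H1975 and all 60 libraries called 2809 and 2780 genes higher. The causes of these shifts were not tested, beyond the smaller number of samples or the stricter threshold. In 2 alternatives chosen after seeing the data, acute against DMSO without acute replicate 1 and DMSO replicate 2 together gave 6816 genes against 6622, and requiring groups that do not overlap left 3861 of the calls between DTP and acute. Other scalings, filters, DESeq2, limma and thinning to the smallest library kept the count within 1.5 times, and every gene shared with the calls above kept its direction. Scaling by library size alone moved the share of higher calls in the difference between lines from 44.4% to 36.6%, and in PC9 from 48.3% to 69.1%.

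Same-numbered acute and DTP replicates deviated with correlations of -0.057, 0.107 and 0.091, and different-numbered ones with -0.165 to 0.101. With 3 libraries in each arm these values cannot tell whether the numbers pair the samples. With a replicate block 3380 genes were called (1351 higher, 2029 lower), and 4945 for acute against DMSO. Of 184 named genes called, 108 were called in every setting counted here in which they were tested, and none reversed. The stricter threshold, the 2-fold rule and the rule on overlap were left out of this count. With at least 10 counts required in every library 161 of the 189 named genes were tested, and by limma 172.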
